A study of Caenorhabditis elegans with 13 samples.

Results

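Cultured embryonic muscle cells were compared with a reference of all viable cultured embryonic cells, 24 hr after embryos had been dissociated. The comparison holds the 3 arrays titled as 24 hr muscle (M24) and the 4 arrays titled as 24 hr reference (R24), 7 of the 13 arrays in the series, and all 22548 probe sets of the Caenorhabditis elegans Affymetrix array. M24 cells came from strain PD4251, which carries the integrated transgene ccIs4251 with GFP under the myo-3 promoter, and were sorted for GFP after culture. R24 cells came from wild-type N2 and were sorted only for viability, by exclusion of propidium iodide, so that strain and cell type cannot be told apart. The study cites an earlier publication for the R24 experiments, so series of experiments and group cannot be told apart either. The myo-3 promoter is active in body wall muscle and in the anal depressor and sphincter muscles of the embryo, and per the study's methods a small part of the sorted cells carried no GFP. The remaining 6 arrays were of muscle sorted straight after dissociation (M0, 3 arrays) and its own reference (R0, 3 arrays), and they enter below only as a comparison of enrichment. The labels call the arrays of a group biological replicates.

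Body wall muscle of the nematode is obliquely striated and mononucleate. Its sarcomeres interdigitate thick filaments of myosin and paramyosin with thin filaments of actin, tropomyosin and troponin, and they are anchored to the basement membrane through integrin attachments, the dense bodies and M-lines. The myogenic factors HLH-1, UNC-120 and HND-1 direct its differentiation, and in culture such cells continue to differentiate and assemble contractile filaments. In RNA from a sorted population, fewer cells of a type and less RNA per cell cannot be told apart.

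Values are log2 of the probe-set intensity after robust multiarray analysis (RMA), and a gene stands for the brightest probe set that names it alone, which gave 17118 genes. A change is the log2 fold change of M24 over R24 with its standard error (SE) from limma, and a call, raised or lowered, needed both a fold change of at least 1.7 in either direction and an adjusted p below 0.05, with the adjustment of Benjamini and Hochberg made over every probe set. Median intensity lay between 50.9 and 58 on M24 arrays and between 52.8 and 54.7 on R24 arrays. M24 replicate 3 stood apart. The squared correlation (R²) of log2 values lay between 0.797 and 0.959 over the 3 M24 pairs, lowest where replicate 3 took part, and between 0.944 and 0.971 over the 6 R24 pairs. Between its lowest and highest decile M24 replicate 3 spanned 3.91 log2 units, against 4.50 and 4.86 on M24 replicates 1 and 2 and 4.57 to 4.85 on R24 arrays. It was also the M24 array least like the reference, with a mean R² of 0.788 against R24 arrays, where M24 replicates 1 and 2 had 0.846 and 0.834. Each M24 array was scanned on a day of its own, R24 replicates 1 to 3 shared another day, and R24 replicate 4 has no recorded day, so that no recorded day holds both groups, and scan day and group cannot be told apart within a day. Results are therefore given with all 7 arrays and without M24 replicate 3.

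The transcript whose promoter drives the sort, myo-3 (myosin heavy chain A), measured 9.08, 8.79 and 7.99 on M24 replicates 1 to 3, against 7.04, 7.19, 6.50 and 6.58 on R24 replicates 1 to 4. Every M24 array exceeded every R24 array, and M24 replicate 3 was the lowest of its group. The change was 1.79 ± 0.30 (SE, adjusted p = 0.0133) and 2.11 ± 0.23 (adjusted p = 0.00329) without M24 replicate 3, and the call was lost without M24 replicate 1 (adjusted p = 0.0557) and in a fit with scan day as a random block, which lets arrays of 1 day deviate together (the scan-day fit, adjusted p = 0.0574 with an estimated correlation). Of the 24 hr arrays only R24 replicates 1 to 3 shared a recorded day, and R24 replicate 4 was given a block of its own. The correlation of the scan-day fit therefore depends on how close these arrays lie. A day effect cannot be told there from a tighter R24 group. As the gene used to choose the cells, myo-3 serves here as a check of the labels.

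With all 7 arrays, 416 genes were raised in M24 (2.43% of 17118) and 1027 were lowered (6.0%), 8.43% in all. Without M24 replicate 3, 942 were raised (5.5%) and 1118 lowered (6.53%), 12% in all. The raised list differed more between the settings: 366 genes were raised both ways, which is 88.0% of the list from all arrays and 38.9% of the list without replicate 3. The lowered lists shared 889 genes, 86.6% of the one and 79.5% of the other. Other arrays moved a count by more than 1.5 times on being left out, to 165 raised and 443 lowered without M24 replicate 1, to 185 and 499 without R24 replicate 2, and to 234 and 657 without R24 replicate 4. The scan-day fit gave 160 raised and 339 lowered genes. A total of 142 raised and 400 lowered genes kept their call whichever array was left out. Quantile normalization of the 7 arrays, which gives M24 replicate 3 the same distribution as the others, gave 676 raised and 946 lowered genes, so that raised genes made up 41.7% of the calls instead of 28.8%. Array weights gave 368 raised and 530 lowered, a share of 41%, and the share without M24 replicate 3 was 45.7%. These weights did not single out M24 replicate 3 (0.268), as M24 replicate 1 had the lowest (0.215) and R24 replicate 2 the highest (4.51). Their iteration stopped before reaching its tolerance, so the order of such close weights is uncertain.

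**Figure D1:**
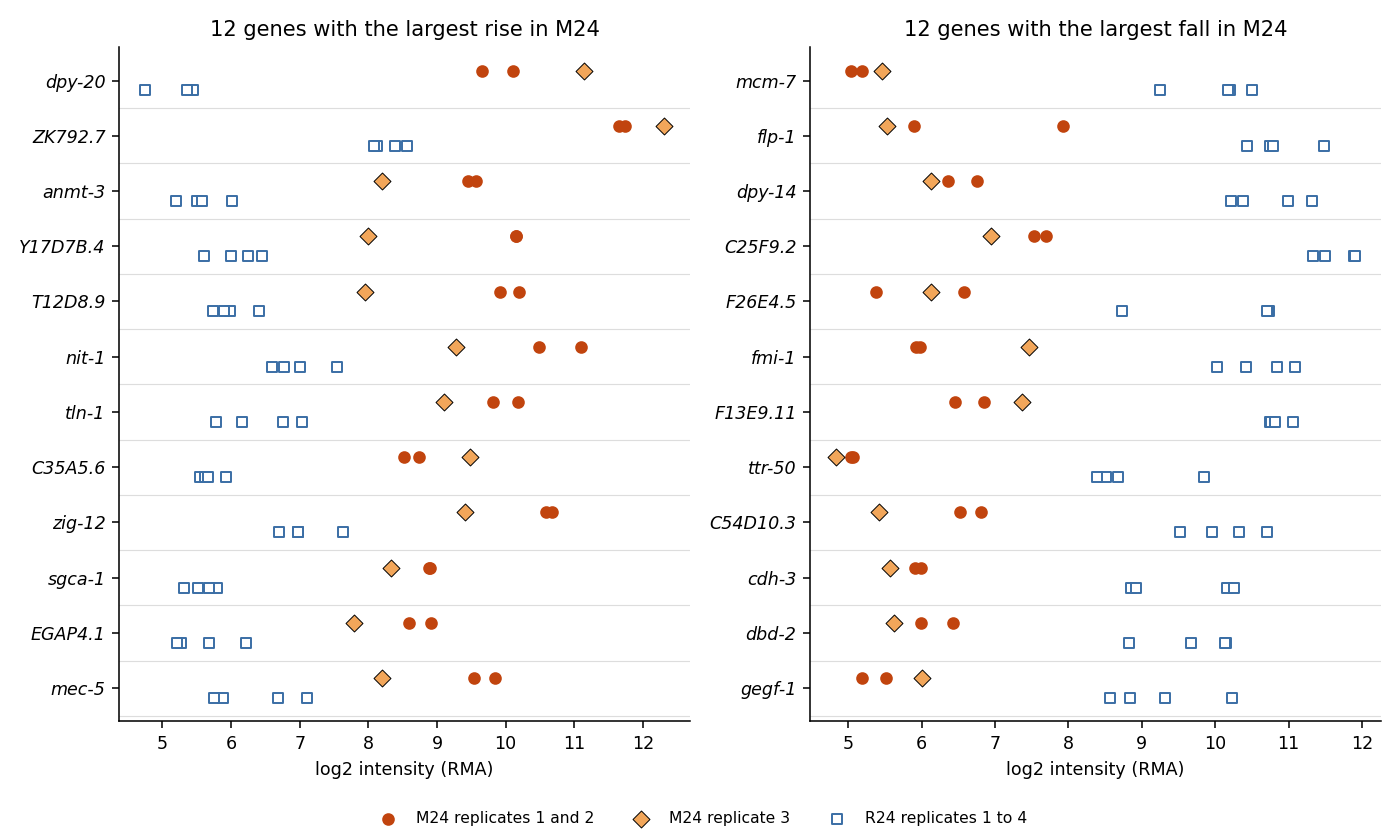
Log2 intensity on each array for the 12 genes with the largest rise (left) and the 12 with the largest fall (right) in M24 relative to R24, among genes called both with all arrays and without M24 replicate 3. M24 arrays are filled circles with replicate 3 as a diamond, and R24 arrays are open squares in the row below them. For all 24 genes the groups do not overlap, which follows in part from how they were chosen. Of all genes, 16.8% had M24 above R24 and 12.4% had M24 below R24 on every array.

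The largest rise was that of dpy-20, which encodes a zinc-finger protein needed for normal body shape and of which a wild-type copy is widely used as a marker for transgenes in this species. Its log2 intensity was 10.11, 9.65 and 11.14 on M24 replicates 1 to 3, against 4.75, 5.41, 5.45 and 5.36 on R24 replicates 1 to 4. M24 replicate 3 held the highest value, unlike for most raised genes, and the change of 5.06 ± 0.36 corresponds to 33.3-fold (adjusted p = 0.00143, 4.64 without M24 replicate 3). Strain and cell type cannot be told apart for this gene. ZK792.7, an uncharacterised gene, measured 11.74, 11.65 and 12.31 on M24 replicates 1 to 3, against 8.56, 8.13, 8.39 and 8.08 on R24 replicates 1 to 4. It too was highest on M24 replicate 3, and it was raised by 3.61 ± 0.20 (adjusted p = 8.95e-04). C35A5.6, also uncharacterised, completed the genes of the top 12 that were highest on M24 replicate 3, with 8.51, 8.73 and 9.48 on M24 replicates 1 to 3 and 5.55, 5.62, 5.66 and 5.92 on R24 replicates 1 to 4 (change 3.22 ± 0.24, adjusted p = 0.00147).

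In the other 9 genes of the top 12 M24 replicate 3 was the lowest M24 array and still above every R24 array. Groups that do not overlap were common, with M24 above R24 in 2883 of the 17118 genes (16.8%) and M24 below R24 in 2117 (12.4%). anmt-3, a member of the amine N-methyltransferase family, measured 9.44, 9.57 and 8.20 on M24 replicates 1 to 3, against 5.51, 5.57, 5.19 and 6.01 on R24 replicates 1 to 4. The change was 3.50 ± 0.36 (adjusted p = 0.00304) and 3.93 without replicate 3. nit-1, which encodes a nitrilase, had 10.48, 11.09 and 9.28 on the M24 arrays and 6.60, 6.77, 7.01 and 7.55 on the R24 arrays, a rise of 3.30 ± 0.43 (adjusted p = 0.00603). The uncharacterised genes Y17D7B.4 and T12D8.9 showed the same shape, highest on M24 replicates 1 and 2 and lower by about 2 log2 units on replicate 3. Y17D7B.4 measured 10.16, 10.15 and 7.99 on M24 replicates 1 to 3, against 6.24, 6.0, 6.45 and 5.61 on R24 replicates 1 to 4. T12D8.9 measured 10.19, 9.92 and 7.96 on M24 replicates 1 to 3, against 6.41, 5.99, 5.90 and 5.73 on R24 replicates 1 to 4. Their changes were 3.36 ± 0.54 (adjusted p = 0.0121) and 3.35 ± 0.52 (adjusted p = 0.0105), and they reached 4.08 and 4.05 without replicate 3. zig-12 (immunoglobulin domains), sgca-1 (an alpha-sarcoglycan), tln-1 (talin), EGAP4.1 (uncharacterised) and mec-5, a collagen known for its role around touch neurons, rose by 3.15, 3.13, 3.27, 2.84 and 2.84. Without M24 replicate 1 the calls of Y17D7B.4 (adjusted p = 0.0564) and mec-5 (adjusted p = 0.0652) were lost, whereas the other 10 of the top 12 were called without any of the 7 arrays. Of the 12, mec-5 alone lost its call in the scan-day fit (adjusted p = 0.0593). Of the 5 other probe sets of tln-1 1 was also raised, of the 3 of sgca-1 1, and of the 2 of mec-5 0. The mean over its probe sets left tln-1 short of a call (0.75, adjusted p = 0.0537). Over the 163 called genes among the 173 named by rule, 77 other probe sets were measured. Of these 34 were called the same way, 40 were not called and 3 were called the opposite way, those of sca-1 and lin-40 below. Further list members named below lay outside this count.

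The largest fall was that of mcm-7, a subunit of the helicase that opens DNA for replication, with 5.03, 5.18 and 5.46 on M24 replicates 1 to 3, against 9.25, 10.20, 10.17 and 10.49 on R24 replicates 1 to 4. All M24 arrays lay more than 3 log2 units below the lowest R24 array, and the change was -4.80 ± 0.29, or 27.9-fold lower in M24 (adjusted p = 8.97e-04). flp-1, which encodes FMRFamide-like neuropeptides, measured 7.93, 5.90 and 5.53 on M24 replicates 1 to 3, against 11.47, 10.75, 10.79 and 10.43 on R24 replicates 1 to 4. M24 replicate 1 held more of it than the other M24 arrays, and the groups did not overlap (change -4.41 ± 0.57, adjusted p = 0.00593). dpy-14, a cuticle collagen of the embryonic epidermis, had 6.75, 6.36 and 6.12 on the M24 arrays, against 11.32, 10.38, 10.99 and 10.22 on the R24 arrays, a fall of -4.31 ± 0.30 (adjusted p = 0.00143).

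fmi-1, the Flamingo cadherin of axon guidance, measured 5.93, 5.98 and 7.47 on M24 replicates 1 to 3, against 10.41, 10.84, 10.02 and 11.08 on R24 replicates 1 to 4. It was the gene of this group in which M24 replicate 3 lay farthest above both other M24 arrays (change -4.13 ± 0.43, adjusted p = 0.00319, -4.64 without replicate 3). cdh-3, a Fat-like cadherin of epithelia, measured 5.99, 5.91 and 5.57 on the M24 arrays and 8.85, 10.16, 8.92 and 10.25 on the R24 arrays (change -3.72 ± 0.40, adjusted p = 0.00330). ttr-50, of the transthyretin-like family of secreted proteins, and gegf-1 changed by -3.87 and -3.66. C25F9.2, F26E4.5, F13E9.11, C54D10.3 and dbd-2 changed by -4.27, -4.19, -3.95, -3.87 and -3.68. F26E4.5 had 1 R24 array far below the rest, at 8.73 on replicate 1, where R24 replicates 2 to 4 measured 10.70 to 10.74. All 12 of the lowered genes with the largest change were called without any of the 7 arrays, and all but F26E4.5 (adjusted p = 0.0516) in the scan-day fit.

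Sarcomere transcripts were higher in M24, with a smaller median difference on M24 replicate 3 (2.17, 2.19 and 1.14 above the R24 mean on replicates 1, 2 and 3 for thick filament genes, and 1.96, 1.75 and 1.24 for thin filament genes). Of 14 thick filament genes 9 were raised and 0 lowered (11 raised without M24 replicate 3), with a median change of 1.82, where the median of all genes was 0.10. The raised share was 64.3%, against 2.43% of all genes. unc-15 (paramyosin, the core of the thick filament) measured 11.21, 11.62 and 10.16 on M24 replicates 1 to 3, against 8.79, 9.17, 8.08 and 8.53 on R24 replicates 1 to 4. It rose by 2.36 ± 0.39 (adjusted p = 0.0131). unc-54 (myosin heavy chain B, the main body wall myosin) measured 10.87, 10.36 and 9.16 on M24 replicates 1 to 3, against 7.98, 8.54, 7.57 and 8.05 on R24 replicates 1 to 4. M24 replicate 3 was closest to the reference, less than 1 log2 unit above the highest R24 array, and the change was 2.09 ± 0.41 (adjusted p = 0.0236) or 2.58 ± 0.28 (adjusted p = 0.00327) without that array. unc-22 (twitchin, a giant kinase that regulates contraction) and unc-82 (a kinase that organises thick filaments) rose by 2.22 ± 0.37 (adjusted p = 0.0133) and 2.18 ± 0.30 (adjusted p = 0.00715). A further probe set of unc-22 was not called (0.49, adjusted p = 0.0546), and the mean over both was 1.36 (adjusted p = 0.00653). unc-45, the myosin chaperone, measured 10.32, 10.31 and 9.50 on the M24 arrays and 8.51, 8.49, 7.59 and 8.42 on the R24 arrays, a rise of 1.79 ± 0.30 (adjusted p = 0.0142). The 5 thick filament genes not called were mlc-2 (2.23), ttn-1 (1.85), ketn-1 (1.26), nmy-3 (1.43) and myo-6, which lay at the R24 level. Without 1 array the number of raised thick filament genes was 1, 8 and 11 without M24 replicates 1, 2 and 3 in turn, and 8, 5, 6 and 6 without R24 replicates 1 to 4, and it was 1 in the scan-day fit. Without M24 replicate 1 the calls of unc-15, unc-22, unc-54 and unc-45 were lost (adjusted p = 0.0649, 0.0658, 0.0811 and 0.0682), and that of unc-54 was kept on leaving out M24 replicate 3 but not on leaving out any other array (adjusted p up to 0.0811). These 4 calls were lost in the scan-day fit as well (adjusted p = 0.0680, 0.0792, 0.0960 and 0.0917).

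Of 23 thin filament genes 13 were raised, 0 were lowered and the median change was 1.67 (14 raised and a median of 1.80 without M24 replicate 3). The raised share was 56.5%, against 2.43% of all genes. unc-27 (a troponin I) measured 11.49, 10.88 and 10.65 on M24 replicates 1 to 3, against 8.70, 8.78, 8.50 and 7.92 on R24 replicates 1 to 4. unc-87 (a calponin-like protein that stabilises actin) measured 12.18, 11.95 and 10.88 on M24 replicates 1 to 3, against 9.33, 9.71, 9.17 and 9.03 on R24 replicates 1 to 4. In both, the lowest M24 array stood more than 1 log2 unit above the highest R24 array, and the changes were 2.53 ± 0.27 (adjusted p = 0.00350) and 2.36 ± 0.33 (adjusted p = 0.00715). unc-78 (AIP1, which promotes actin turnover) and tni-3 (another troponin I) rose by 2.26 ± 0.30 (adjusted p = 0.00617) and 2.2 ± 0.32 (adjusted p = 0.00859). These 4 genes were called without any of the 7 arrays and in the scan-day fit. Raised thin filament genes numbered 8, 12 and 14 without M24 replicates 1, 2 and 3 in turn, and 11, 10, 11 and 10 without R24 replicates 1 to 4.

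Genes of the muscle attachments, which tie dense bodies and M-lines to the basement membrane, were raised in 11 of 25 cases and lowered in 1 (median change 0.98). These shares were 44% and 4%, where 2.43% of all genes were raised and 6.0% lowered. Without M24 replicate 3, 17 were raised (median 1.36). tln-1 (talin, which couples integrin to actin) measured 10.18, 9.82 and 9.10 on M24 replicates 1 to 3, against 6.76, 7.04, 5.79 and 6.16 on R24 replicates 1 to 4. unc-95, a paxillin-like component of dense bodies, measured 9.16, 8.41 and 7.76 on M24 replicates 1 to 3, against 5.59, 6.02, 5.83 and 5.56 on R24 replicates 1 to 4. Replicate 1 was highest and replicate 3 lowest of the M24 arrays for both genes, none met the R24 values, and the changes were 3.27 ± 0.37 (adjusted p = 0.00386) and 2.69 ± 0.31 (adjusted p = 0.00414). dim-1, an immunoglobulin protein of dense bodies, rose by 1.95 ± 0.22 (adjusted p = 0.00394). unc-98, a zinc-finger protein of M-lines, rose by 2.24 ± 0.46 (adjusted p = 0.0275), a call that held with all arrays and without M24 replicates 2 or 3 but not without M24 replicate 1 (adjusted p = 0.111) or any R24 array (up to 0.0798 without R24 replicate 4). The lowered member was ina-1, an integrin alpha chain other than the one of muscle attachments (-1.85 ± 0.29, adjusted p = 0.0114). The number of raised attachment genes was 5, 7 and 17 without M24 replicates 1, 2 and 3 in turn, and 6, 6, 6 and 6 without R24 replicates 1 to 4. The scan-day fit called 4 raised and 0 lowered, and unc-98 (adjusted p = 0.0915) and ina-1 (0.0850, and 0.0564 without M24 replicate 1) lost their calls.

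In the dystrophin complex, which links the cytoskeleton to the matrix, 3 of 11 genes were raised and 1 was lowered (6 raised without M24 replicate 3). These shares were 27.3% and 9.09% with all arrays, where 2.43% of all genes were raised and 6.0% lowered. sgca-1 measured 8.90, 8.88 and 8.33 on M24 replicates 1 to 3, against 5.31, 5.80, 5.51 and 5.68 on R24 replicates 1 to 4. sgn-1, a gamma-sarcoglycan type gene, measured 9.65, 9.58 and 8.70 on M24 replicates 1 to 3, against 6.66, 7.0, 6.66 and 6.73 on R24 replicates 1 to 4. Both were lowest on M24 replicate 3 and far above R24 there too, with changes of 3.13 ± 0.19 (adjusted p = 8.97e-04) and 2.55 ± 0.25 (adjusted p = 0.00262). islo-1, a membrane protein that places the SLO-1 potassium channel, rose by 0.99 ± 0.15 (adjusted p = 0.0104). ctn-1, an alpha-catulin that is also found outside muscle, was the lowered member, with 8.03, 8.04 and 7.02 on M24 replicates 1 to 3, against 8.81, 9.02, 9.36 and 9.51 on R24 replicates 1 to 4. M24 replicate 3 was lowest, and the change was -1.48 ± 0.30 (adjusted p = 0.0250, lost without M24 replicate 1 or R24 replicates 2, 3 or 4, with adjusted p = 0.0621, 0.0709, 0.0645 and 0.0704). The mean over its probe sets put ctn-1 at -0.01 (adjusted p = 0.992). In the scan-day fit 2 of the 11 genes were raised and 0 lowered, with the calls of islo-1 and ctn-1 lost (adjusted p = 0.0531 and 0.0781).

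Genes of excitation and of calcium handling followed in part. Of 19 calcium handling genes 4 were raised and 1 was lowered (median 0.19). These shares were 21.1% and 5.26%, where 2.43% of all genes were raised and 6.0% lowered, so that the lowered share lay near that of all genes. csq-1 (calsequestrin, the calcium store of the sarcoplasmic reticulum) measured 10.65, 10.06 and 9.47 on M24 replicates 1 to 3, against 7.71, 8.14, 7.96 and 7.42 on R24 replicates 1 to 4. sca-1 (the SERCA pump, which refills that store) measured 10.72, 10.64 and 10.28 on M24 replicates 1 to 3, against 8.72, 9.01, 8.46 and 8.75 on R24 replicates 1 to 4. The groups did not overlap in either gene, and the changes were 2.25 ± 0.30 (adjusted p = 0.00609) and 1.81 ± 0.17 (adjusted p = 0.00248). These values of sca-1 are those of its brightest probe set, and 2 of its 3 other probe sets were lowered (-2.05, adjusted p = 0.00226, and -1.68, adjusted p = 0.00350), with the last at 0.23 (adjusted p = 0.736). The mean of all 4 was -0.42 (adjusted p = 0.211), so that the direction of sca-1 was not settled by the array. mca-1, a plasma membrane calcium pump, changed the other way on its brighter probe set, with 5.20, 5.22 and 6.02 on the M24 arrays and 7.10, 7.14, 6.53 and 7.39 on the R24 arrays (-1.56 ± 0.27, adjusted p = 0.0161, lost without M24 replicate 1 at 0.0744 and without R24 replicate 2 at 0.0591). A further probe set of mca-1 was not called (0.24, adjusted p = 0.222), and the mean over both was -0.66 (adjusted p = 0.0567). ncs-3 and cal-1, a neuronal calcium sensor type gene and a calmodulin-related gene, were the other raised members (1.21 and 0.95), and ncs-3 lost its call without M24 replicate 1 (adjusted p = 0.0597) or R24 replicate 2 (adjusted p = 0.0561). Raised calcium handling genes numbered 2, 4 and 6 without M24 replicates 1, 2 and 3 in turn, and 3, 2, 3 and 3 without R24 replicates 1 to 4. Under the scan-day fit they numbered 2, with 0 lowered, and mca-1 and ncs-3 lost their calls (adjusted p = 0.0655 and 0.0733), as did cal-1 (0.114), which also fell short on leaving out any array but M24 replicate 2.

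Among 19 potassium channel genes and their regulators 5 were raised (26.3%, against 2.43% of all genes) and 0 lowered. twk-18, a two-pore channel of body wall muscle, measured 10.35, 9.62 and 9.84 on M24 replicates 1 to 3, against 7.99, 8.61, 8.10 and 7.75 on R24 replicates 1 to 4. sup-9, the pore of another muscle channel, and sup-10, its regulatory subunit, rose by 1.63 ± 0.24 (adjusted p = 0.00832) and 1.12 ± 0.17 (adjusted p = 0.0101), beside 1.83 ± 0.25 (adjusted p = 0.00715) for twk-18. On M24 replicate 3 the median of these channel genes stood 0.54 above the R24 mean, against 0.47 and 0.42 on replicates 1 and 2, so that these genes were as high on that array as on the others. The remaining raised members were islo-1, described above, and shk-1, a Shaker channel (0.84 ± 0.16, adjusted p = 0.0205). The number of raised potassium channel genes was 4, 4 and 6 without M24 replicates 1, 2 and 3 in turn, and 5, 4, 4 and 4 without R24 replicates 1 to 4. It was 3 in the scan-day fit, where islo-1 and shk-1 lost their calls (adjusted p = 0.0531 and 0.0651).

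Postsynaptic receptor genes were raised in 5 of 19 cases (26.3%, against 2.43% of all genes) and in 10 without M24 replicate 3. unc-29, a subunit of the levamisole acetylcholine receptor of muscle, measured 8.21, 8.69 and 6.84 on M24 replicates 1 to 3, against 5.37, 5.59, 5.40 and 5.62 on R24 replicates 1 to 4. lev-9, a secreted protein that clusters these receptors, measured 8.14, 8.37 and 8.38 on M24 replicates 1 to 3, against 7.01, 6.92, 7.04 and 6.80 on R24 replicates 1 to 4. M24 replicate 3 was low for unc-29 and level with the others for lev-9, and the changes were 2.42 ± 0.40 (adjusted p = 0.0134) and 1.36 ± 0.12 (adjusted p = 0.00217). A further probe set of lev-9 was at -0.03 (adjusted p = 0.928). The mean over the probe sets of lev-9 was 0.66 (adjusted p = 0.0303), short of the fold minimum. lev-1, another subunit of the levamisole receptor, rose by 1.79 ± 0.23 (adjusted p = 0.00595). acr-16, which forms the nicotine-sensitive receptor of muscle, measured 5.88, 5.72 and 6.16 on the M24 arrays and 4.64, 4.56, 4.64 and 4.53 on the R24 arrays, a rise of 1.33 ± 0.13 (adjusted p = 0.00268). The call of unc-29 was lost without M24 replicate 1 (adjusted p = 0.0661), and the other 3 were called without any of the 7 arrays. unc-63, a further subunit of the levamisole receptor, was the fifth raised gene (1.33 ± 0.15, adjusted p = 0.00382), and the number of raised receptor genes was 4, 5 and 10 without M24 replicates 1, 2 and 3 in turn, and 5, 5, 5 and 5 without R24 replicates 1 to 4.

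Innexin genes, which form gap junctions, were lowered in 9 of 25 cases and raised in 1 (36% and 4%, against 6.0% and 2.43% of all genes). inx-3, an innexin of many embryonic tissues, measured 7.01, 6.98 and 7.87 on M24 replicates 1 to 3, against 9.05, 9.46, 9.47 and 9.26 on R24 replicates 1 to 4. Its change was -2.02 ± 0.24 (adjusted p = 0.00449). inx-18 was the raised innexin, with 6.88, 8.0 and 6.63 on M24 replicates 1 to 3, against 5.32, 5.32, 5.05 and 5.08 on R24 replicates 1 to 4 (1.98 ± 0.32, adjusted p = 0.0118). inx-12, inx-13 and inx-2 changed by -2.26, -2.11 and -2.14, and the number of lowered innexins was 4, 6 and 8 without M24 replicates 1, 2 and 3 in turn, and 7, 6, 5 and 6 without R24 replicates 1 to 4. It was 3 in the scan-day fit, and inx-12 was not among them (adjusted p = 0.0642).

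The myogenic factor hlh-1 (the MyoD homologue) measured 7.48, 7.49 and 6.70 on M24 replicates 1 to 3, against 4.70, 4.78, 5.04 and 4.88 on R24 replicates 1 to 4. The R24 arrays lay within 0.4 of each other, and the rise was 2.38 ± 0.21 (adjusted p = 0.00230). unc-120 (a serum response factor type gene) measured 9.06, 9.41 and 7.89 on M24 replicates 1 to 3, against 6.42, 7.10, 6.16 and 6.42 on R24 replicates 1 to 4. It rose by 2.26 ± 0.39 (adjusted p = 0.0148), a call lost without M24 replicate 1 (adjusted p = 0.0711). These were the raised members among 25 mesoderm transcription factors, of which 2 were lowered: pal-1, a caudal homologue that acts early in muscle and epidermal lineages, at -1.43 ± 0.24 (adjusted p = 0.0135, 0.0660 without M24 replicate 1), and let-381, a forkhead factor of other mesoderm, at -1.17 ± 0.21 (adjusted p = 0.0187, lost without M24 replicate 1 or R24 replicates 2 or 4, with 0.0610, 0.0670 and 0.0569). The raised and the lowered share were 8% each, where 2.43% of all genes were raised and 6.0% lowered. No other probe set of pal-1 was called (-0.14 and -0.53), and the mean over its probe sets was -0.70 (adjusted p = 0.0502). For let-381 the further probe set was not called (-0.32), and the mean of -0.74 (adjusted p = 0.0246) was short of the fold minimum. A further list held transcription factors that the study itself had picked from these samples, so its direction is not independent evidence. Of its 19 genes 5 were raised (26.3%), 1 was lowered (5.26%) and, without M24 replicate 3, 11 were raised. mxl-3 (a basic helix-loop-helix factor) measured 8.01, 8.27 and 8.29 on M24 replicates 1 to 3, against 6.20, 6.39, 6.37 and 6.12 on R24 replicates 1 to 4. It varied by less than 0.4 within either group and rose by 1.92 ± 0.13 (adjusted p = 0.00128). sbp-1 (SREBP, a regulator of lipid synthesis) rose by 1.15 ± 0.14 (adjusted p = 0.00479), and lin-40 (an MTA-type chromatin factor) changed by -2.28 ± 0.29 (adjusted p = 0.00578) on its brighter probe set. Its other probe set was raised (0.80, adjusted p = 0.0493) and the mean of both was -0.74 (adjusted p = 0.0585), so that its direction was not settled by the array. The other raised genes were atf-4 (1.40), zip-3 (0.98) and tbx-41 (0.77), of which atf-4 lost its call without M24 replicate 1 (adjusted p = 0.0903) or R24 replicate 2 (adjusted p = 0.0694). The number of raised genes of this list was 2, 6 and 11 without M24 replicates 1, 2 and 3 in turn, and 5, 2, 4 and 3 without R24 replicates 1 to 4. In the scan-day fit it was 2, with 0 lowered, and of the genes above unc-120, pal-1, let-381, lin-40, atf-4, zip-3 and tbx-41 lost their calls (adjusted p = 0.0684, 0.0674, 0.103, 0.0514, 0.111, 0.0941 and 0.115).

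Secreted and matrix genes went both ways. Of 22 basement membrane genes 4 were raised and 5 lowered (18.2% and 22.7%, against 2.43% and 6.0% of all genes). mig-17, an ADAMTS protease secreted by body wall muscle, measured 7.08, 7.59 and 6.22 on M24 replicates 1 to 3, against 4.28, 4.84, 4.41 and 4.47 on R24 replicates 1 to 4. lam-3, a laminin alpha chain, measured 4.55, 4.73 and 4.4 on M24 replicates 1 to 3, against 6.27, 7.05, 6.81 and 7.87 on R24 replicates 1 to 4. The groups were apart in both, upward for mig-17 (2.46 ± 0.32, adjusted p = 0.00578) and downward for lam-3 (-2.44 ± 0.35, adjusted p = 0.00772). The other raised genes were fbl-1 (fibulin, 1.7), epi-1 (a laminin alpha chain, 1.28) and spon-1 (spondin, 1.18), and the other lowered ones were ddr-2 (a discoidin domain receptor, -1.75), unc-52 (perlecan, -1.27), agr-1 (agrin, -0.93) and nid-1 (nidogen, -0.85). fbl-1 kept its call on leaving out M24 replicate 3 and lost it on leaving out any other array (adjusted p up to 0.150), and ddr-2 lost it without R24 replicate 2 (adjusted p = 0.0587). A further probe set of fbl-1 was at -0.33 (adjusted p = 0.382), and the mean over both was 0.69 (adjusted p = 0.109). For lam-3 the further probe set was at -0.23 (adjusted p = 0.590), with a mean of -1.34 (adjusted p = 0.0302). Without 1 array the number of raised basement membrane genes was 1, 2 and 7 without M24 replicates 1, 2 and 3 in turn, and 1, 1, 1 and 1 without R24 replicates 1 to 4, and the number of lowered ones was 2, 3 and 5 without M24 replicates 1, 2 and 3 in turn, and 2, 1, 4 and 3 without R24 replicates 1 to 4. There were 1 raised and 1 lowered in the scan-day fit. Among 35 guidance cues and receptors 1 was raised, let-756 (a fibroblast growth factor, 1.24 ± 0.14, adjusted p = 0.00411), and 3 were lowered, lon-2 (a glypican, -2.12 ± 0.31, adjusted p = 0.00814), cfz-2 (a Frizzled receptor, -1.72 ± 0.28, adjusted p = 0.0125) and plx-2 (a plexin, -1.68 ± 0.27, adjusted p = 0.0120, lost without M24 replicate 1 at 0.0567). These shares of 2.86% and 8.57% lay near those of all genes (2.43% and 6.0%). lon-2 and cfz-2 lost their calls in the scan-day fit (adjusted p = 0.0651 and 0.0630). A further probe set of lon-2 was at 0.07 (adjusted p = 0.674), and the mean over both was -1.03 (adjusted p = 0.00801). The number of raised guidance genes was 1, 1 and 6 without M24 replicates 1, 2 and 3 in turn, and 1, 1, 1 and 1 without R24 replicates 1 to 4. The zig genes, which encode small secreted or membrane immunoglobulin proteins, split into zig-12 and zig-7 raised and zig-3 and zig-4 lowered, of 12 measured (16.7% each way). zig-7 measured 9.96, 10.05 and 8.57 on M24 replicates 1 to 3, against 6.96, 6.97, 6.78 and 6.63 on R24 replicates 1 to 4. zig-4, known from a neuron that maintains axon position, measured 7.91, 7.27 and 6.98 on M24 replicates 1 to 3, against 10.79, 10.46, 9.90 and 10.12 on R24 replicates 1 to 4. No M24 array met an R24 array in either gene (2.69 ± 0.36, adjusted p = 0.00609, and -2.93 ± 0.29, adjusted p = 0.00272), and both calls held without any of the 7 arrays. A further probe set of zig-7 was not called (1.35, adjusted p = 0.0677), and the mean over both was 2.02 (adjusted p = 0.0156).

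**Figure D2:**
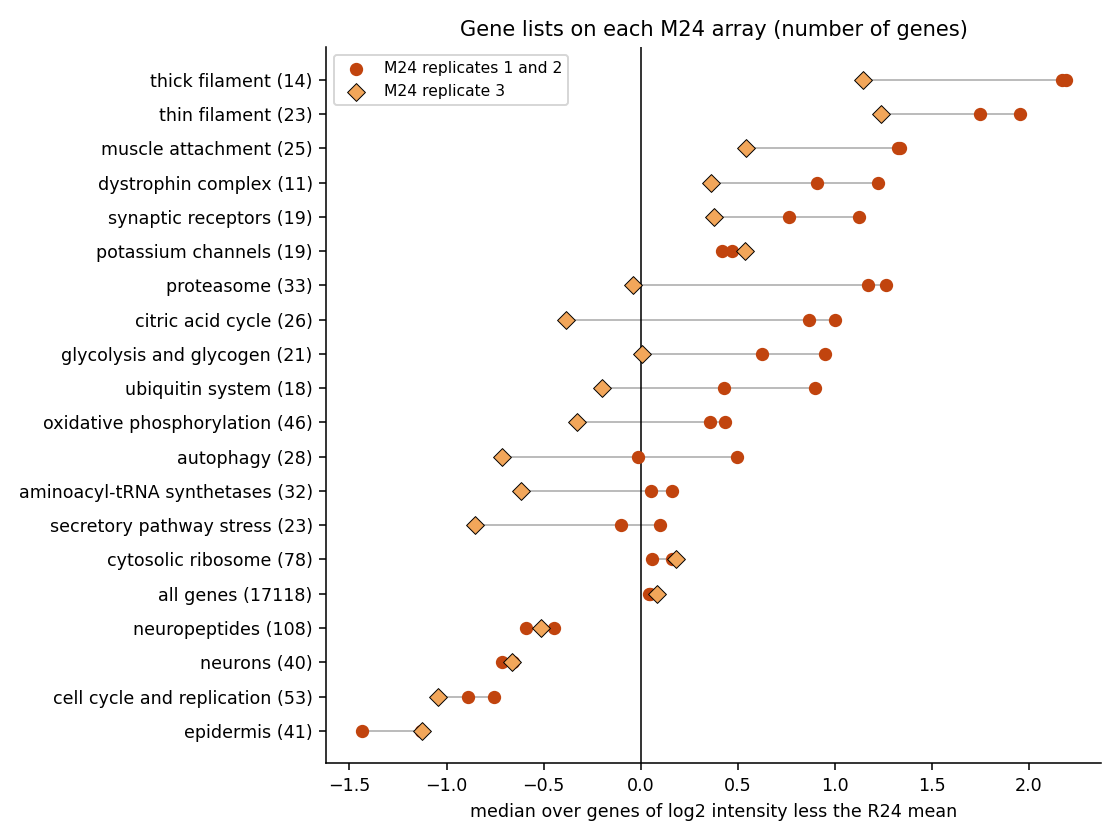
Median, over the genes of each list, of the log2 intensity on M24 replicates 1 and 2 (circles) and on M24 replicate 3 (diamonds) less the mean of the 4 R24 arrays, with the number of genes in parentheses and 0 marking the R24 mean. Proteasome genes sit at 1.17 and 1.26 on replicates 1 and 2 and at -0.04 on replicate 3, whereas epidermal and neuronal markers are low on all 3 arrays.

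Of the lists examined, those of the citric acid cycle and the proteasome had the widest gap between M24 replicate 3 and the other M24 arrays. The proteasome, the complex that degrades ubiquitin-tagged proteins, had 33 measured genes, of which 2 were raised with all arrays and 28 without M24 replicate 3. These shares were 6.06% and 84.8%, where 2.43% and 5.5% of all genes were raised. The median over these genes stood 1.17, 1.26 and -0.04 from the R24 mean on M24 replicates 1, 2 and 3. On replicates 1 and 2, 31 and 32 of the genes lay above every R24 array, and 11 did on replicate 3, where 9 lay below every R24 array. Replicate 3 was the lowest M24 array in all 33 genes. pbs-1 and pbs-7, which encode beta subunits of the core, were the raised pair. pbs-1 measured 10.94, 10.52 and 9.92 on M24 replicates 1 to 3, against 9.28, 8.96, 9.19 and 9.11 on R24 replicates 1 to 4. pbs-7 measured 10.65, 10.90 and 10.10 on M24 replicates 1 to 3, against 9.66, 9.22, 9.31 and 9.30 on R24 replicates 1 to 4. In both M24 replicate 3 was still above the reference, and the changes were 1.32 ± 0.23 (adjusted p = 0.0164) and 1.18 ± 0.21 (adjusted p = 0.0170). Both calls were lost without R24 replicate 2 (adjusted p = 0.0601 and 0.0616) and R24 replicate 4 (adjusted p = 0.0505 and 0.0529), and that of pbs-7 also without M24 replicate 1 (adjusted p = 0.0772). pas-7, an alpha subunit of the core picked after its values were seen, measured 10.41, 10.26 and 8.19 on M24 replicates 1 to 3, against 8.24, 7.97, 8.68 and 8.36 on R24 replicates 1 to 4. Its M24 replicate 3 value fell among the R24 values, and the change was 1.30 (adjusted p = 0.150) with all arrays and 2.02 (adjusted p = 0.00237) without replicate 3. Quantile normalization, which kept all 7 arrays, called 20 proteasome genes raised, array weights 9 and scan day as a random block 0.

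**Figure D3:**
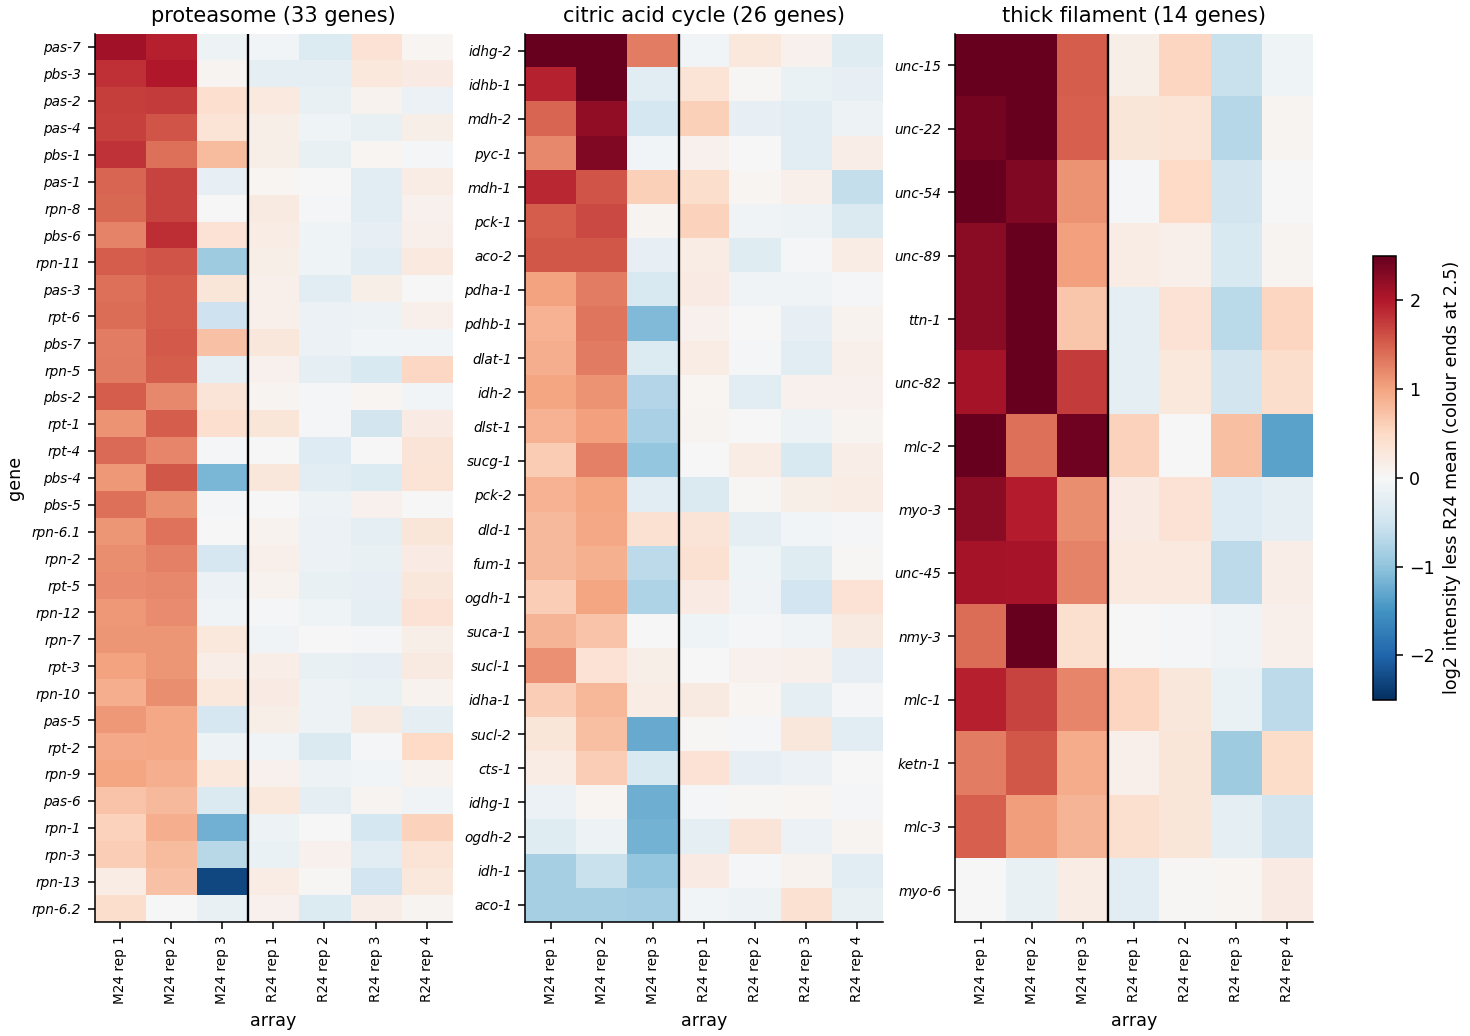
Log2 intensity of each proteasome, citric acid cycle and thick filament gene (rows) on M24 replicates 1 to 3 and R24 replicates 1 to 4 (columns, parted by the black line), less that gene's mean over the R24 arrays, with the colour ending at 2.5 in either direction. The 33 proteasome genes and the 26 citric acid cycle genes are lowest of the M24 arrays on replicate 3 without exception, whereas most of the 14 thick filament genes are red on all 3 M24 arrays.

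Citric acid cycle genes, which include the pyruvate dehydrogenase, pyruvate carboxylase and PEP carboxykinase genes in the list used here, had the same shape. Of 26 genes 1 was raised and 2 were lowered, and 17 were raised and 1 lowered without M24 replicate 3. With all arrays these shares (3.85% and 7.69%) lay near those of all genes (2.43% and 6.0%). Without M24 replicate 3 they were 65.4% and 3.85%, against 5.5% and 6.53% of all genes. The median over the list stood 0.87 and 1.0 above the R24 mean on replicates 1 and 2 and at -0.38 on replicate 3, where 16 genes were below every R24 array. idhg-2, which encodes a subunit of the NAD-dependent isocitrate dehydrogenase, was the raised member, with 7.99, 8.07 and 6.51 on M24 replicates 1 to 3, against 5.17, 5.49, 5.33 and 4.94 on R24 replicates 1 to 4. It was the one gene of the list that stayed clear of the reference by more than 1 log2 unit on replicate 3 (2.29 ± 0.38, adjusted p = 0.0137, 0.0641 without M24 replicate 1). aco-1 (a cytosolic aconitase) and idh-1 (a cytosolic isocitrate dehydrogenase) were the lowered pair. aco-1 measured 7.58, 7.58 and 7.54 on M24 replicates 1 to 3, against 8.34, 8.28, 8.80 and 8.23 on R24 replicates 1 to 4. idh-1 measured 8.85, 9.11 and 8.70 on M24 replicates 1 to 3, against 9.87, 9.65, 9.77 and 9.41 on R24 replicates 1 to 4. The M24 arrays lay below the R24 arrays in both. The changes were -0.85 ± 0.16 (adjusted p = 0.0191) and -0.79 ± 0.16 (adjusted p = 0.0245). Both calls were lost without M24 replicate 1 (adjusted p = 0.0765 and 0.0951) and R24 replicate 2 (adjusted p = 0.0537 and 0.0777). Without R24 replicate 3, aco-1 fell short of the fold minimum and idh-1 missed the threshold (adjusted p = 0.0637), and idh-1 was also lost without R24 replicate 1 (adjusted p = 0.0567) and, by the fold minimum, without M24 replicate 3 (-0.69). The scan-day fit called 1 gene of the list raised and 0 lowered (adjusted p = 0.129 for aco-1 and 0.100 for idh-1).

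Glycolysis and glycogen genes were raised in 4 of 21 cases and lowered in 1 (9 and 1 without M24 replicate 3). The aldolase pair went opposite ways. aldo-1 measured 11.86, 11.97 and 11.19 on M24 replicates 1 to 3, against 10.95, 10.72, 10.67 and 10.45 on R24 replicates 1 to 4. aldo-2 measured 6.98, 6.54 and 6.53 on M24 replicates 1 to 3, against 9.28, 8.28, 8.96 and 7.92 on R24 replicates 1 to 4. For aldo-1 the change was 0.97 ± 0.22 (adjusted p = 0.0351), and for aldo-2 -1.93 ± 0.33 (adjusted p = 0.0155). gpd-3 (glyceraldehyde-3-phosphate dehydrogenase) and pgk-1 (phosphoglycerate kinase) rose by 1.30 ± 0.27 (adjusted p = 0.0275) and 1.45 ± 0.33 (adjusted p = 0.0373), and gpd-2, a near copy of gpd-3, by 0.77 ± 0.14 (adjusted p = 0.0177). Raised glycolysis genes numbered 0, 0 and 9 without M24 replicates 1, 2 and 3 in turn, and 3, 0, 2 and 1 without R24 replicates 1 to 4. The calls of aldo-1, gpd-3 and pgk-1 were lost without M24 replicate 1 (adjusted p = 0.132, 0.0951 and 0.131), M24 replicate 2 (adjusted p = 0.0690, 0.0606 and 0.0764) or R24 replicate 2 (adjusted p = 0.102, 0.0709 and 0.108), and those of aldo-1 and pgk-1 also without R24 replicate 3 (adjusted p = 0.0804 and 0.0682) or R24 replicate 4 (adjusted p = 0.0955 and 0.102), and that of pgk-1 without R24 replicate 1 (adjusted p = 0.0726). aldo-2 lost its call without M24 replicate 1 (adjusted p = 0.0509). In the scan-day fit 1 gene was raised and 0 were lowered, with gpd-3 still called and aldo-1, aldo-2, pgk-1 and gpd-2 not (adjusted p = 0.0941, 0.0944, 0.0906 and 0.0738).

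Several other general functions had a median below the R24 mean on M24 replicate 3, as did the 25% of genes with the highest mean intensity (-0.54). Median differences from the R24 mean on M24 replicates 1, 2 and 3 were 0.44, 0.36 and -0.33 for 46 oxidative phosphorylation genes, -0.01, 0.50 and -0.71 for 28 autophagy genes, 0.05, 0.16 and -0.61 for 32 aminoacyl-tRNA synthetase genes and -0.10, 0.10 and -0.86 for 23 genes of the secretory pathway and its stress response. Few of them passed the test with all arrays. sdha-2, a succinate dehydrogenase subunit, was the lowered oxidative phosphorylation gene, with 6.80, 7.15 and 7.55 on M24 replicates 1 to 3, against 8.24, 9.59, 9.19 and 9.64 on R24 replicates 1 to 4. Here M24 replicate 3 was the highest of its group (-2.0 ± 0.36, adjusted p = 0.0183, lost without M24 replicate 1 at 0.0813, R24 replicate 2 at 0.0610 and R24 replicate 4 at 0.0514). Without M24 replicate 3, 7 oxidative phosphorylation genes were raised, where with all arrays 1 was, ucr-2.2 of complex III (1.13 ± 0.22, adjusted p = 0.0225, up to 0.0947 without 1 array). hsp-4 (BiP, a chaperone of the endoplasmic reticulum) measured 7.80, 8.12 and 7.26 on M24 replicates 1 to 3, against 9.16, 9.06, 8.99 and 9.32 on R24 replicates 1 to 4. Its fall of -1.40 ± 0.21 (adjusted p = 0.00927) was called without any of the 7 arrays, whereas that of enpl-1 (an endoplasmin chaperone, -1.94 ± 0.47, adjusted p = 0.0452) was lost without M24 replicate 1 (adjusted p = 0.126) or any R24 array. The tRNA synthetase genes ears-1 and cars-2 were lowered (-1.1 and -1.33), and both lost the call without M24 replicate 1 or R24 replicates 2 or 4 (adjusted p up to 0.124 and 0.0951), and ears-1 also without replicate 3 of either group. The small heat shock gene sip-1 measured 5.89, 5.33 and 7.06 on the M24 arrays and 8.42, 8.43, 10.16 and 8.10 on the R24 arrays, where R24 replicate 3 stood high (-2.68 ± 0.59, adjusted p = 0.0329, up to 0.122 without 1 array). That call was kept on leaving out M24 replicate 3 or R24 replicate 3 and lost on leaving out any other array. Of 34 cytosolic chaperone genes 2 were raised, unc-45 and hsp-25 (0.97), and 3 lowered, sip-1, hsp-43 (-1.97, adjusted p = 0.0535 without R24 replicate 2) and hsp-17. Of 18 genes of the ubiquitin system 1 was raised, ubxn-1 (0.98 ± 0.23, adjusted p = 0.0413), a call kept on leaving out M24 replicate 3 and lost on leaving out any other array. Of 59 mitochondrial ribosome genes 2 were raised (mrps-16 at 1.01, mrps-10 at 0.79) and 1 lowered (mrps-5 at -0.81), and each of these calls was lost without R24 replicate 2 (adjusted p = 0.0670, 0.140 and 0.0836). Of 52 genes of the vacuolar ATPase and lysosome 2 were raised, the proteases cpl-1 (1.68, adjusted p up to 0.158 without 1 array) and cpr-1, and 4 lowered, of which the aspartyl protease asp-14 was called without any of the 7 arrays (-1.24 ± 0.18, adjusted p = 0.00912). Of all genes 2.43% were raised and 6.0% lowered. Near these lay the shares of vacuolar ATPase and lysosome genes (3.85% and 7.69%), oxidative phosphorylation genes (2.17% raised) and tRNA synthetase genes (6.25% lowered). Raised shares were 5.88% for cytosolic chaperones, 5.56% for the ubiquitin system and 3.39% for the mitochondrial ribosome. Lowered shares of the chaperones and the secretory pathway were 8.82% and 8.70%. No autophagy gene was called with all arrays, and the one nearest to a call, atg-10, had 0.74 (adjusted p = 0.0351). Cytosolic ribosomal protein genes, 78 in number, stood near the reference on all 3, with medians of 0.16, 0.06 and 0.18 on the 3 M24 arrays. rpl-11.1, which has a near copy in the genome, was the one called and was lowered, with 9.38, 9.26 and 8.92 on M24 replicates 1 to 3, against 10.92, 10.54, 11.18 and 10.68 on R24 replicates 1 to 4 (-1.64 ± 0.19, adjusted p = 0.00412). hsp-4 and rpl-11.1 kept their calls in the scan-day fit, and the other genes called in these lists lost them, asp-14 among them (adjusted p = 0.0711).

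**Figure D4:**
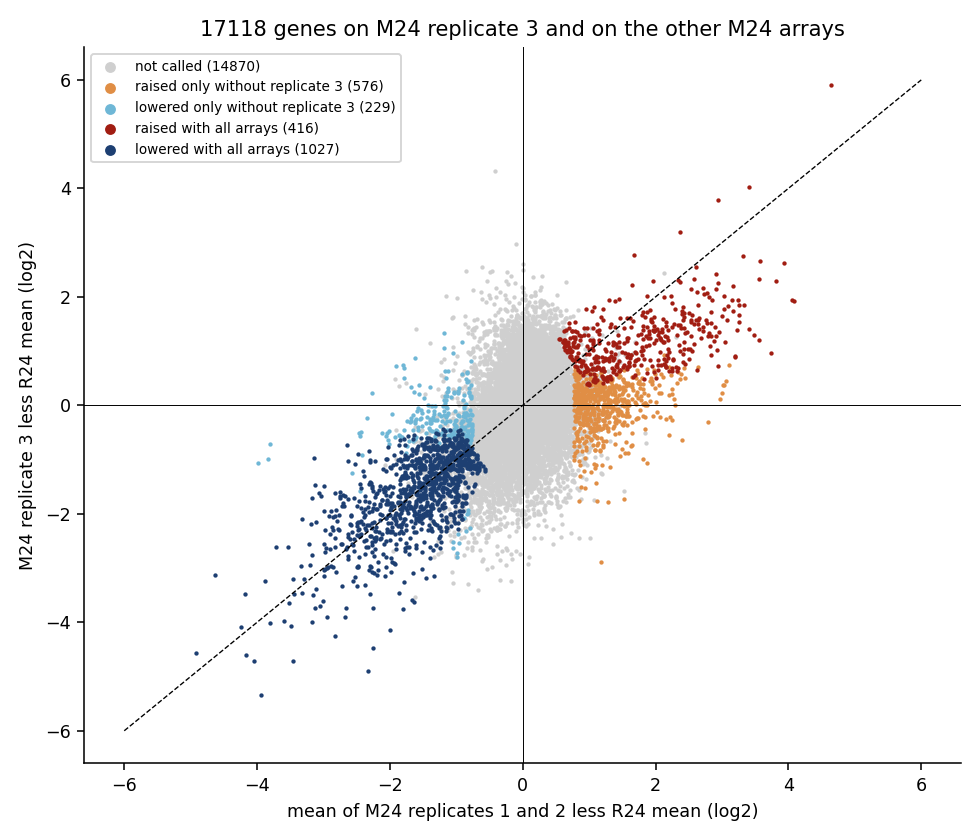
Each of 17118 genes by its log2 intensity less the R24 mean, as the mean of M24 replicates 1 and 2 (horizontal axis) and on M24 replicate 3 (vertical axis), coloured by its call and with the diagonal dashed. The 416 raised and 1027 lowered genes, called with replicate 3, and the 576 raised and 229 lowered only without it occupy different parts of the vertical axis, which follows from how the calls define them.

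Across all genes M24 replicate 3 differed from the 2 other M24 arrays by level. Over the 25% of genes with the highest mean intensity it lay at a median of -0.54 from the R24 mean, where replicates 1 and 2 lay at -0.09 and 0.12. Over the 25% just below the middle of the ranking replicate 3 lay at 0.28, and replicates 1 and 2 lay at 0.10 and 0.04. Relative to the mean of replicates 1 and 2, 1760 genes (10.3%) were more than 1 log2 unit lower on replicate 3, and 974 (5.69%) were more than 1 log2 unit higher. Among the 416 genes raised with all arrays the median difference from the R24 mean was 1.58, 1.62 and 1.13 on replicates 1, 2 and 3. Since these calls used replicate 3, and the next sets were defined by what it does to a call, the values on that array follow in part from the choice of genes and are given as a description only. For the 1027 lowered genes the medians were -1.46, -1.47 and -1.50. The 576 genes raised only without replicate 3 had 1.01, 1.26 and 0.06. On that array 161 of them lay above every R24 array, 273 within the R24 range and 142 below it. The 229 genes lowered only without replicate 3 had -1.04, -1.22 and -0.32. RNA quality was not measured here, and its part in these differences was not tested.

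The single genes on which M24 replicate 3 departed most were picked after their values were seen and carry no test of that departure. hsp-70, a heat-inducible chaperone, measured 10.90, 11.06 and 6.92 on M24 replicates 1 to 3, against 9.72, 10.02, 9.35 and 10.10 on R24 replicates 1 to 4. It was about 4 log2 units lower on replicate 3 than on replicates 1 and 2, and below every R24 array. let-721, which encodes the dehydrogenase of electron transfer flavoprotein, measured 9.41, 9.85 and 6.37 on M24 replicates 1 to 3, against 8.09, 8.0, 8.13 and 8.18 on R24 replicates 1 to 4. Without replicate 3 let-721 was raised (1.53, adjusted p = 0.00228), and with it the change was 0.44 (adjusted p = 0.715). tre-3, a trehalase, measured 8.31, 8.98 and 5.56 on M24 replicates 1 to 3, against 5.26, 6.01, 5.78 and 6.39 on R24 replicates 1 to 4. In the other direction nep-14, a neprilysin-type peptidase gene, measured 5.73, 4.08 and 9.64 on M24 replicates 1 to 3, against 4.70, 5.21, 6.66 and 4.73 on R24 replicates 1 to 4. F53A9.6, F53A9.7 and F53A9.8, neighbours by their names on the X chromosome, were each more than 3 log2 units higher on replicate 3 than on replicates 1 and 2. F53A9.8 measured 6.75, 6.75 and 10.09 on M24 replicates 1 to 3, against 7.82, 7.39, 8.99 and 6.22 on R24 replicates 1 to 4. R24 replicate 3 was the highest R24 array for all 3 of them.

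Among genes raised only without M24 replicate 3, the largest changes were those of ZK809.8, acs-17 (an acyl-CoA synthetase), ceh-33 (a Six-type homeobox gene) and Y37D8A.2. ceh-33 measured 7.13, 7.59 and 4.70 on M24 replicates 1 to 3, against 4.32, 4.12, 4.52 and 4.34 on R24 replicates 1 to 4. Y37D8A.2 measured 8.32, 8.52 and 5.79 on M24 replicates 1 to 3, against 5.51, 5.51, 5.40 and 5.21 on R24 replicates 1 to 4. Replicate 3 lay within 0.4 of the highest R24 array in both, and the change went to 3.03 ± 0.17 (adjusted p = 6.48e-04) and 3.01 ± 0.13 (adjusted p = 4.56e-04) without it, against 2.15 ± 0.64 (adjusted p = 0.0771) and 2.14 ± 0.62 (adjusted p = 0.0737) with it. The largest falls seen only without replicate 3 were those of Y54B9A.1, Y54F10AM.8 and T02H6.3. Y54B9A.1 measured 8.82, 7.74 and 11.20 on M24 replicates 1 to 3, against 11.08, 12.99, 12.15 and 12.85 on R24 replicates 1 to 4. The values of these 3 genes stayed within 0.4 of each other on every array, and signal from cross-hybridising copies cannot be told apart by such probe sets. A smaller set was called only with all arrays, 50 raised and 138 lowered genes. Y69E1A.5 (uncharacterised) led the raised ones with 9.75, 8.97 and 9.70 on M24 replicates 1 to 3, against 7.92, 7.60, 7.88 and 6.22 on R24 replicates 1 to 4. The change was 2.07 ± 0.44 (adjusted p = 0.0301), and adjusted p was 0.0515 without M24 replicate 3, 0.119 without M24 replicate 1 and 0.0819 without R24 replicate 2. hsp-17, a small heat shock gene, measured 8.22, 6.42 and 6.31 on M24 replicates 1 to 3, against 9.51, 8.62, 9.15 and 9.69 on R24 replicates 1 to 4. Its change of -2.26 ± 0.50 (adjusted p = 0.0340) kept its call on leaving out M24 replicate 1 and lost it on leaving out any other array (adjusted p up to 0.0948).

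Transcripts of cell division were lower on all M24 arrays. Of 53 cell cycle and replication genes 24 were lowered and 0 were raised, with a median of -0.93 (23 lowered without M24 replicate 3). The lowered share was 45.3%, against 6.0% of all genes. mcm-5, another subunit of the replicative helicase, measured 6.44, 6.23 and 6.33 on M24 replicates 1 to 3, against 8.42, 9.14, 8.99 and 9.05 on R24 replicates 1 to 4. cyb-1, a mitotic cyclin B, measured 6.03, 5.81 and 6.19 on M24 replicates 1 to 3, against 8.27, 8.72, 8.96 and 8.26 on R24 replicates 1 to 4. The M24 arrays agreed within 0.4 in both genes, far below the R24 arrays, and the changes were -2.57 ± 0.19 (adjusted p = 0.00147) and -2.54 ± 0.21 (adjusted p = 0.00176). plk-1 (polo-like kinase) changed by -2.61 ± 0.31 (adjusted p = 0.00426). The list stood -0.89, -0.75 and -1.04 from the R24 mean on M24 replicates 1, 2 and 3, so that replicate 3 was no closer to the reference. The number lowered was 10, 23 and 23 without M24 replicates 1, 2 and 3 in turn, and 22, 11, 17 and 13 without R24 replicates 1 to 4. It was 9 in the scan-day fit.

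Of the lists for other cell types, those of neurons and epidermis and the neuropeptide genes had the largest shares of genes lowered in M24, where 6.0% of all genes were lowered. Neuronal markers were lowered in 12 of 40 cases and raised in 0, and their summed intensity was 8471 to 11086 on M24 arrays and 15973 to 23928 on R24 arrays. egl-3, the proprotein convertase that processes neuropeptides, measured 8.65, 8.29 and 7.77 on M24 replicates 1 to 3, against 11.34, 10.71, 10.33 and 10.79 on R24 replicates 1 to 4. egl-21, the carboxypeptidase that acts after it, measured 8.90, 7.80 and 8.05 on M24 replicates 1 to 3, against 11.27, 10.34, 10.46 and 10.38 on R24 replicates 1 to 4. The groups did not overlap (-2.56 ± 0.29, adjusted p = 0.00386, and -2.36 ± 0.33, adjusted p = 0.00751). unc-10, a RIM protein of synaptic vesicle release, changed by -1.98 ± 0.17 (adjusted p = 0.00191). No further probe set of unc-10 (-1.40, adjusted p = 0.0710, and 0.29, adjusted p = 0.284) or egl-3 (-0.87, adjusted p = 0.112) was called. The means over probe sets were -1.03 for unc-10 (adjusted p = 0.0244) and -1.715 for egl-3 (adjusted p = 0.0119). Of 108 neuropeptide genes 33 were lowered and 0 raised, led after flp-1 by nlp-60 (-3.0 ± 0.26, adjusted p = 0.00214) and flp-19 (-2.75 ± 0.24, adjusted p = 0.00215). The number of lowered neuronal markers was 7, 9 and 14 without M24 replicates 1, 2 and 3 in turn, and 9, 8, 14 and 8 without R24 replicates 1 to 4, and that of lowered neuropeptide genes was 10, 19 and 26 without M24 replicates 1, 2 and 3 in turn, and 30, 14, 21 and 23 without R24 replicates 1 to 4. Sensory cilium genes were lowered in 3 of 39 cases, bbs-5, a subunit of the BBSome (-1.54 ± 0.19, adjusted p = 0.00495), and the transport genes osm-5 (-1.32) and che-3 (-1.2), both lost without M24 replicate 1 (adjusted p = 0.0843 and 0.169) or R24 replicate 2 (adjusted p = 0.0601 and 0.126), with osm-5 also lost without R24 replicate 4 (adjusted p = 0.0557) and che-3 without any array other than M24 replicate 3. The list median was 0.0. The number lowered was 1, 2 and 6 without M24 replicates 1, 2 and 3 in turn, and 2, 1, 2 and 1 without R24 replicates 1 to 4. Lowered neuronal markers numbered 5, neuropeptide genes 7 and sensory cilium genes 1 in the scan-day fit, in which egl-21 narrowly lost its call (adjusted p = 0.0501). Array weights left 10 lowered neuropeptide genes and 16 added before log2 left 19. The share of sensory cilium genes lowered (7.69%) lay near that of all genes, and with eBayes with trend and robust 6 of them were lowered.

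Epidermal markers had the lowest median of the marker lists, with 20 of 41 genes lowered, 0 raised and a median of -1.05. Their summed intensity was 5784 to 6890 on M24 arrays and 20805 to 27352 on R24 arrays. sqt-3, a cuticle collagen made in the embryo, measured 8.83, 8.69 and 9.02 on M24 replicates 1 to 3, against 12.57, 11.82, 12.04 and 11.42 on R24 replicates 1 to 4. dpy-17, a collagen that acts together with it, measured 8.32, 7.27 and 8.17 on M24 replicates 1 to 3, against 11.71, 10.58, 11.56 and 10.71 on R24 replicates 1 to 4. noah-1, a zona pellucida protein of the embryonic sheath, measured 7.53, 6.55 and 8.26 on M24 replicates 1 to 3, against 10.28, 10.15, 10.24 and 10.78 on R24 replicates 1 to 4. All M24 values were below all R24 values in the 3 genes, and the changes were -3.11 ± 0.26, -3.22 ± 0.37 and -2.91 ± 0.38 (adjusted p = 0.00191, 0.00412 and 0.00609). The number of lowered epidermal genes was 15, 18 and 23 without M24 replicates 1, 2 and 3 in turn, and 17, 14, 19 and 19 without R24 replicates 1 to 4. Cuticle collagen genes as a class were mostly not called, and the share lowered (5.47%) lay near that of all genes, with 7 of 128 lowered and 1 raised (col-76, 0.78), and col-121 changed most (-3.04 ± 0.31, adjusted p = 0.00298). The number lowered was 5, 5 and 7 without M24 replicates 1, 2 and 3 in turn, and 6, 3, 4 and 6 without R24 replicates 1 to 4. Both lists shrank in the scan-day fit, to 15 lowered epidermal markers and 2 lowered cuticle collagen genes.

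The lists of the other types had medians of -0.32 (pharynx), -0.03 (germline), -0.01 (excretory cell) and 0.01 (intestine), and since RMA leaves no value at 0, no marker can be said to be absent. Their lowered shares were 21.1%, 9.52%, 11.1% and 8% in this order, where 6.0% of all genes were lowered. Pharyngeal markers were lowered in 4 of 19 cases and summed to 2236 to 2589 on M24 arrays and 2538 to 2811 on R24 arrays. phat-3, a gene of pharyngeal gland cells, changed by -0.91 ± 0.12 (adjusted p = 0.00603), and was called without any of the 7 arrays, unlike tnt-4 (-1.55), eya-1 (-0.98) and phat-1 (-0.84), which were lost without M24 replicate 1 (adjusted p = 0.0913, 0.0660 and 0.0774) and without 1 to 2 other arrays each. Germline and maternal markers were lowered in 4 of 42 cases and summed to 6114 to 10274 on M24 arrays and 8847 to 10992 on R24 arrays. These were meg-1 (-1.47), spn-4 (-1.1), glh-1 (-1.06) and deps-1 (-1.0), and none of the 4 calls held without R24 replicate 4 except that of spn-4, which was lost without M24 replicate 1 (adjusted p = 0.0634) or R24 replicate 2 (adjusted p = 0.0535). Means over probe sets left spn-4 (-0.57) and glh-1 (-0.69) short of the fold minimum. Intestinal markers were raised in 2 and lowered in 2 of 25 cases and summed to 2784 to 3140 on M24 arrays and 2414 to 4026 on R24 arrays. The raised pair was gst-4, a glutathione S-transferase that responds to oxidative stress, and cpr-1, a cathepsin B type protease. gst-4 measured 8.26, 8.27 and 8.13 on M24 replicates 1 to 3, against 6.25, 5.85, 6.12 and 6.34 on R24 replicates 1 to 4. All M24 arrays lay within 0.2 of each other (2.08 ± 0.14, adjusted p = 0.00142), and it was called without any of the 7 arrays. cpr-1 measured 9.15, 9.33 and 7.86 on the M24 arrays and 7.42, 7.08, 7.04 and 7.27 on the R24 arrays (1.57 ± 0.34, adjusted p = 0.0326, kept without M24 replicate 3 and up to 0.126 without another array). The lowered pair was act-5, a microvillar actin (-1.35 ± 0.24, adjusted p = 0.0164, 0.0716 without M24 replicate 1), and itx-1 (-0.90 ± 0.21, adjusted p = 0.0413, up to 0.146 without 1 array). elt-2, the defining factor of the intestine, was not called (-0.36, adjusted p = 0.514). Excretory cell markers were lowered in 1 of 9 cases, exc-6 at -1.08 ± 0.22 (adjusted p = 0.0249), and lost that call without M24 replicates 1 or 2 (adjusted p = 0.0936 and 0.0502) or R24 replicates 2, 3 or 4 (adjusted p = 0.0555, 0.0633 and 0.0639). Of 2 coelomocyte markers 0 were lowered, and unc-122, a surface protein of coelomocytes, measured 5.89, 5.60 and 6.38 on M24 replicates 1 to 3, against 6.38, 7.08, 6.38 and 7.06 on R24 replicates 1 to 4 (change -0.76 ± 0.27, adjusted p = 0.113). Lowered markers in the scan-day fit numbered 1 for pharynx, 0 for germline, 0 for intestine and 0 for the excretory cell, and cpr-1 lost its call (adjusted p = 0.100). The part of residual cells of these types in the M24 values was not tested.

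Of 4 families of regulation and metabolism, nuclear receptor and detoxification genes were lowered in 4.72% and 6.77% of cases, near the 6.0% of all genes, and ceh and lipid synthesis genes in 13.3% and 12.1%. Nuclear hormone receptor genes were lowered in 12 of 254 cases and raised in 1 (nhr-290, 0.78). nhr-43 measured 5.78, 4.77 and 4.06 on M24 replicates 1 to 3, against 8.18, 8.13, 7.45 and 8.07 on R24 replicates 1 to 4. It was lowest on M24 replicate 3 (-3.09 ± 0.40, adjusted p = 0.00578), and nhr-11 and nhr-102 changed by -1.75 and -1.69 (adjusted p = 0.00409 and 0.00266). Homeobox genes named ceh were lowered in 8 of 60 cases and raised in 0, with the largest fall in ceh-43, a distal-less homologue of head epidermis and neurons. ceh-43 measured 4.98, 4.96 and 4.70 on M24 replicates 1 to 3, against 7.75, 8.46, 8.17 and 7.96 on R24 replicates 1 to 4. The M24 arrays lay within 0.4 of each other (-3.20 ± 0.19, adjusted p = 8.95e-04). Of 33 genes of fatty acid and sterol synthesis 4 were lowered and 1 was raised, sbp-1. fasn-1 (fatty acid synthase) measured 6.77, 6.44 and 7.03 on M24 replicates 1 to 3, against 9.77, 9.47, 8.69 and 10.44 on R24 replicates 1 to 4, with every M24 array below every R24 array (-2.85 ± 0.39, adjusted p = 0.00690). pmt-2, fat-4 and elo-6 changed by -1.71, -1.66 and -1.51, and each lost its call without R24 replicate 2 (adjusted p = 0.0836, 0.0632 and 0.0616). Detoxification genes, the cytochrome P450, glucuronosyltransferase and glutathione S-transferase families, were lowered in 13 and raised in 3 of 192 cases. The raised ones were gst-4, gst-3 (1.02) and gst-2 (0.86). ugt-58 (a glucuronosyltransferase) and gst-12 (a glutathione S-transferase) changed by -2.41 ± 0.23 (adjusted p = 0.00248) and -2.22 ± 0.34 (adjusted p = 0.00988). The number of lowered nuclear receptor genes was 3, 12 and 14 without M24 replicates 1, 2 and 3 in turn, and 8, 6, 15 and 8 without R24 replicates 1 to 4, that of lowered ceh genes 4, 7 and 8 without M24 replicates 1, 2 and 3 in turn, and 7, 5, 8 and 8 without R24 replicates 1 to 4, and that of lowered detoxification genes 7, 10 and 14 without M24 replicates 1, 2 and 3 in turn, and 10, 7, 12 and 10 without R24 replicates 1 to 4. A total of 4 nuclear receptor, 3 ceh, 1 lipid synthesis and 4 detoxification genes were lowered in the scan-day fit, where gst-12 lost its call (adjusted p = 0.0724).

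**Figure D5:**
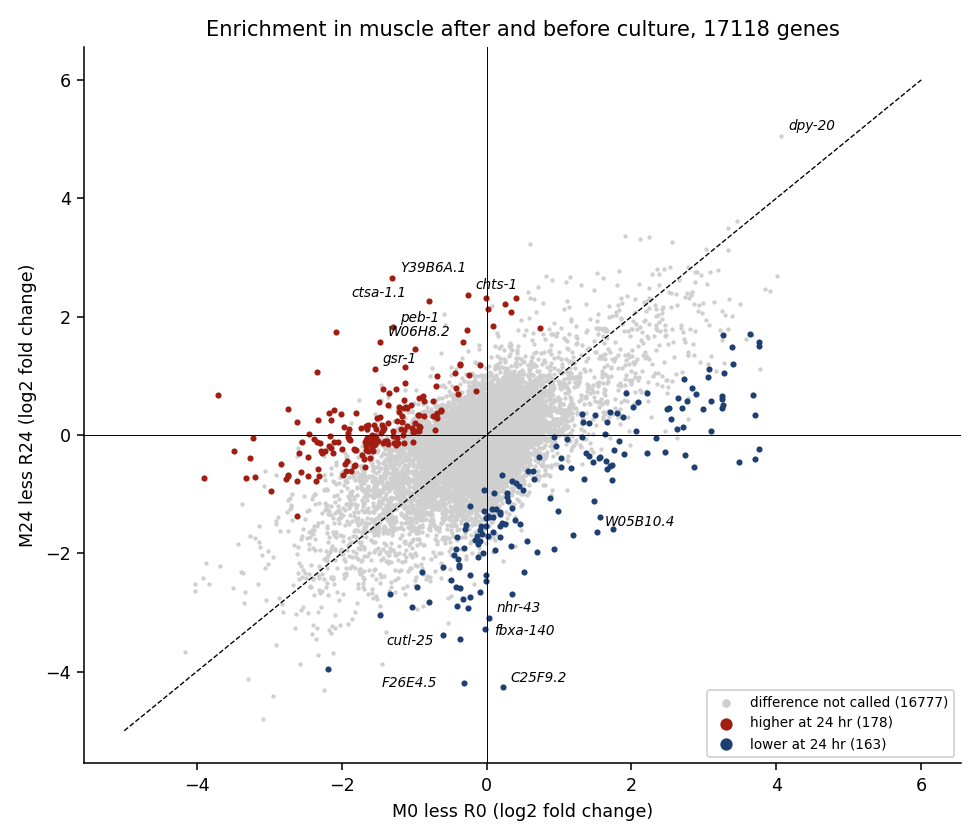
Log2 fold change of M24 over R24 (vertical axis) and of M0 over R0 (horizontal axis) for 17118 genes, with the diagonal dashed. Genes whose difference of enrichment was called are coloured, 178 higher and 163 lower at 24 hr, and the names mark the 6 largest in each direction that were also called at 24 hr, and dpy-20.

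The same 2 sorts made straight after dissociation give the genes called before culture, for comparison with those called at 24 hr. At 0 hr 676 genes were raised in M0 over R0 (3.95%) and 1415 lowered (8.27%). Of the 416 genes raised at 24 hr, 220 were raised at 0 hr (52.9% of the 24 hr list and 32.5% of the 0 hr list), and 6 were lowered there. Of the 1027 lowered genes, 560 were lowered at 0 hr (54.5% and 39.6%), and 3 were raised. The values of each time come from separate RMA runs, so only the difference of enrichments, (M24 less R24) less (M0 less R0), was tested, over all 13 arrays. It was called higher for 178 genes (1.04%) and lower for 163 (0.952%). No thick filament, thin filament, attachment, dystrophin complex, calcium or receptor gene was called in that test. A difference that missed the threshold does not show that enrichment was equal. M0 replicate 1 shared a scan day with R0 replicate 1, and M0 replicate 2 with R0 replicate 3. No recorded day held both M24 and R24, and the 0 hr arrays came from another chip lot. The fit took no account of scan day, so a change with culture cannot be told apart from day or lot in the called differences.

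Of the genes raised at 24 hr, 27 were also called higher in this test and 8 were called lower, being more enriched at 0 hr. Among the 27 the largest differences were those of Y39B6A.1, peb-1, ctsa-1.1, W06H8.2, gsr-1 and chts-1. Y39B6A.1 (uncharacterised) measured 7.41, 8.50 and 8.79 on M24 replicates 1 to 3, against 5.47, 4.92, 6.20 and 5.75 on R24 replicates 1 to 4. Its enrichment was 2.65 at 24 hr and -1.30 at 0 hr, a difference of 3.95 ± 0.69 (adjusted p = 0.0144). peb-1, a zinc-finger factor known from the pharynx, measured 8.45, 9.74 and 8.39 on M24 replicates 1 to 3, against 7.20, 7.38, 6.56 and 7.04 on R24 replicates 1 to 4. M24 replicate 2 stood out upward, and enrichment was 1.82 at 24 hr and -1.30 at 0 hr (difference 3.11 ± 0.47, adjusted p = 0.00589). These values are those of its brightest probe set. At 24 hr a further probe set of peb-1 was at 0.66 (adjusted p = 0.0287), short of the fold minimum. The mean over both was 1.24 (adjusted p = 0.0159). ctsa-1.1, a lysosomal carboxypeptidase related to cathepsin A, measured 11.40, 10.72 and 9.92 on the M24 arrays and 8.65, 8.75, 8.56 and 7.70 on the R24 arrays (difference 3.06 ± 0.56, adjusted p = 0.0167). gsr-1, glutathione reductase, measured 11.83, 11.90 and 11.12 on M24 replicates 1 to 3, against 10.405, 10.14, 10.44 and 11.03 on R24 replicates 1 to 4. The lowest M24 array was within 0.2 of the highest R24 array, and the enrichment at 0 hr was -1.54 (difference 2.65 ± 0.53, adjusted p = 0.0251). W06H8.2 and chts-1 had differences of 3.04 and 2.62. At 24 hr a further probe set of chts-1 was not called (0.61, adjusted p = 0.0591), and the mean over both was 1.49 (adjusted p = 0.0178). At 24 hr itself, peb-1, ctsa-1.1, gsr-1 and chts-1 lost their call without M24 replicate 1 (adjusted p = 0.0617, 0.0548, 0.155 and 0.0839), and peb-1, gsr-1 and chts-1 also without R24 replicate 2 (adjusted p = 0.0603, 0.124 and 0.0527). The call of peb-1 was also lost without R24 replicates 1, 3 or 4 (adjusted p = 0.0520, 0.0588 and 0.0696), that of gsr-1 without M24 replicate 2 or R24 replicates 1 or 3 (adjusted p = 0.0877, 0.0954 and 0.0970), and that of chts-1 without R24 replicate 4 (adjusted p = 0.0514). Y39B6A.1, peb-1, gsr-1 and chts-1 were not called at 24 hr in the scan-day fit (adjusted p = 0.0650, 0.100, 0.144 and 0.0746). pbs-7 was the one proteasome gene with a called difference (1.55 ± 0.30, adjusted p = 0.0223), and no proteasome gene was raised or lowered at 0 hr, where the median of the list was -0.08.

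Of the genes lowered at 24 hr, 82 were also called lower in this test and 1 was called higher. C25F9.2 (uncharacterised) measured 7.69, 7.53 and 6.94 on M24 replicates 1 to 3, against 11.33, 11.89, 11.50 and 11.90 on R24 replicates 1 to 4. Its change was -4.27 ± 0.23 (adjusted p = 8.95e-04) at 24 hr and 0.23 at 0 hr, and the difference of -4.49 ± 0.30 (adjusted p = 2.52e-05) had the smallest adjusted p of the named genes. cutl-25, of the cuticlin-like family, measured 4.58, 4.54 and 4.53 on M24 replicates 1 to 3, against 7.43, 8.23, 8.11 and 8.25 on R24 replicates 1 to 4. All M24 values lay within 0.1 of each other (-3.46 ± 0.21, against -0.37 at 0 hr, difference -3.09 ± 0.28, adjusted p = 4.15e-04). fbxa-140, an F-box gene, measured 4.61, 4.38 and 4.16 on M24 replicates 1 to 3, against 6.32, 7.71, 8.43 and 8.17 on R24 replicates 1 to 4 (difference -3.25 ± 0.56, adjusted p = 0.0127). nhr-43 changed by 0.03 at 0 hr (difference -3.12 ± 0.46, adjusted p = 0.00582) and zig-4 by -0.25 (difference -2.67 ± 0.36, adjusted p = 0.00431). The scan-day fit did not call fbxa-140 at 24 hr (adjusted p = 0.0732). F26E4.5 and W05B10.4 had differences of -3.88 and -3.17, and W05B10.4 was raised at 0 hr (1.52, adjusted p = 0.00216) and lowered at 24 hr (-1.65, adjusted p = 0.0463, a call lost without M24 replicates 1 or 2 or R24 replicates 2, 3 or 4, with 0.0676, 0.0509, 0.132, 0.103 and 0.115). Sensory cilium genes were called higher in this test in 5 of 39 cases: their median enrichment was 0.0 at 24 hr and -0.76 at 0 hr. Without 1 array the number of genes called higher lay between 80, without R24 replicate 2, and 338, without M24 replicate 3, and it was 93 without M24 replicate 1, 114 without R24 replicate 3, 101 without R24 replicate 4, 98 without M0 replicate 3, 106 without R0 replicate 1 and 93 without R0 replicate 3. The number called lower lay between 92, without R24 replicate 2 or R0 replicate 3, and 218, without R24 replicate 1, and it was 93 to 106 without M24 replicate 1, M0 replicate 1 or M0 replicate 3.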

How the data were processed

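The deposited values were intensities of 22548 probe sets on 13 one-colour Affymetrix arrays. Per the study's methods, total RNA was amplified, labelled and hybridized, and the authors summarised each probe set by RMA, which corrects background and quantile normalizes between arrays; the version of RMA is not given in the sources used here. The deposited intensities were linear and above 0, and exact values shared between arrays showed that each time had its own RMA run. RMA draws arrays of 1 run together, so differences that involve M24 replicate 3 are those left after it. Scanner records, whose deposited settings are text (other), supplied scan day and chip lot, 1 lot for the 24 hr arrays with a record.

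Intensities were taken as log2 and fitted with limma 3.58.1 (R 4.3.3), M24 and R24 as groups, lmFit and eBayes, Benjamini-Hochberg adjustment over all 22548 probe sets, at an adjusted p of 0.05 and a fold of 1.7. The study's methods used another test (SAM); limma replaces it here. The enrichment at 24 hr less that at 0 hr came from 1 fit of all 4 groups. GEO's platform annotation gave 1 gene for 20766 probe sets, several for 887 and none for 895, and 20701 of the 20766 had an identifier in the RefSeq gene table. No probe set was dropped for low signal, no array was imputed, and array number limits the precision. The fit was tested on simulated data with known changes.

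The members and the 40 gene lists were chosen with earlier results of these data known. Named genes were myo-3, the top 12 risers and top 12 fallers among genes called both with and without M24 replicate 3, the 4 largest each way called only with or only without it, up to 4 called members of each list, and the 6 largest called differences of enrichment each way, 173 genes in all. Other list members are named where a count was 5 or fewer, or as stated, after their values were seen. Alternatives were leaving out each array, scan day or replicate number as a block, quantile normalization, array weights, another variance model, a filter on low values, 16 added before log2, other thresholds and the mean of a gene's probe sets. Figures were drawn with matplotlib 3.10.9.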

Additional observations from a re-analysis of the deposited data

Results flagged for a closer look

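In R24, 10 of 173 named genes (5.78%) had 1 array farther from the other 3 than Dixon's 95% criterion for a group of 4 allows. Chance marks about 1 group in 20, and groups of 3, M24 among them, are not tested. R24 replicate 1 was low for dpy-20 (4.75, others 5.36 to 5.45), F26E4.5 (8.73, others 10.70 to 10.74) and cutl-25 (7.43, others 8.11 to 8.25), and high for elo-6 (7.86, others 7.06 to 7.18) and egl-21 (11.27, others 10.34 to 10.46). R24 replicate 3 was high for sip-1 (10.16, others 8.10 to 8.43) and atg-10 (3.91, others 3.77 to 3.79), and low for unc-45 (7.59, others 8.42 to 8.51) and nhr-43 (7.45, others 8.07 to 8.18). R24 replicate 4 was low for gpd-3 (10.07, others 11.01 to 11.12).

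For 19 named genes the enrichment of muscle over its reference differed between 24 hr and 0 hr (limma, difference with its adjusted p). It was higher at 24 hr for Y39B6A.1 (3.95, adjusted p = 0.0144), peb-1 (3.11, 0.00589), ctsa-1.1 (3.06, 0.0167), W06H8.2 (3.04, 0.00520), gsr-1 (2.65, 0.0251), chts-1 (2.62, 0.0367), cpr-1 (1.90, 0.0335) and pbs-7 (1.55, 0.0223). It was lower at 24 hr for C25F9.2 (-4.49, adjusted p = 2.52e-05), F26E4.5 (-3.88, 0.0106), fbxa-140 (-3.25, 0.0127), W05B10.4 (-3.17, 0.00807), nhr-43 (-3.12, 0.00582), cutl-25 (-3.09, 4.15e-04), zig-4 (-2.67, 0.00431), F13E9.11 (-1.76, 0.0325), rpl-11.1 (-1.74, 0.0337), asp-14 (-1.58, 0.0226) and mrps-5 (-1.22, 0.0370).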

How the results depend on the processing

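The mean of all probe sets of a gene, an alternative chosen after seeing the data for single genes, turned sca-1 round (-0.42, adjusted p = 0.211) and ended the call of 12 other named genes, and no other alternative reversed a called named gene. These 12 were tln-1, ctn-1, mca-1, lev-9, pal-1, let-381, lin-40, fbl-1, asp-5, spn-4, glh-1 and ceh-32. Of 163 called named genes 86 were called without any 1 array and 80 with scan day as a random block, which lets arrays of 1 day deviate together (correlation 0.571). Only R24 replicates 1 to 3 shared a day, so this fit cannot part a day effect from a tighter R24 group. Leaving out 1 array gave 194 to 1230 raised and 584 to 1479 lowered probe sets (510 and 1337 with all arrays) and 165 to 942 raised and 443 to 1118 lowered genes, lowest without M24 replicate 1 and highest without M24 replicate 3. For the difference of enrichment it gave 80 to 338 higher and 92 to 218 lower genes, against 178 and 163. Scan day as a random block gave 188 raised and 430 lowered probe sets, or 160 and 339 genes. Quantile normalization gave 831 raised probe sets and 676 raised genes, and 392 of the 416 raised and 843 of the 1027 lowered genes were also called. Array weights, whose iteration stopped before reaching its tolerance, gave 701 lowered probe sets and 530 lowered genes, and 299 higher and 290 lower differences. An adjusted p under 0.01 left 147 raised and 473 lowered probe sets, or 130 and 372 genes, and no fold minimum gave 806 raised probe sets or 651 genes. The other variance model, the low filter, 16 added before log2 and the mean of a gene's probe sets kept the counts over all probe sets and genes within 1.5 times, but not those of single lists, where the low filter gave 9 raised proteasome genes in place of 2 and 16 added gave 1 raised detoxification gene in place of 3. The cause of these shifts was not tested.

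Groups share replicate numbers, but the study's methods compared them unpaired, and so did the main fit here. The deviations of same-numbered M24 and R24 arrays correlated at 0.21, -0.04 and 0.38. Arrays of unlike number were not compared in this way, so these values cannot tell whether the numbers pair the arrays. The study credits R24 to 4 independent experiments with reference to an earlier publication, which gives no ground to read the numbers as pairs. With replicate number as a block, 251 probe sets were raised and 755 lowered, or 210 and 581 genes. The labels call the arrays biological replicates, and 3 against 4 arrays with no scan day in common set the precision of each value here.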
